A study of Mus musculus with 10 samples.

Results

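The genes of oxidative phosphorylation (OXPHOS) are the 114 genes, of 53974 in the RNA-seq table, whose symbols begin with *Ndufa*, *Ndufb*, *Ndufc*, *Ndufs*, *Ndufv*, *Sdh*, *Uqcr*, *Cox4* to *Cox8* or *Atp5*, or with *mt-Nd*, *mt-Co*, *mt-Cytb* or *mt-Atp*, pseudogene symbols with -ps left out. Of these, 101 lie in the nuclear genome and 13 in the mitochondrial genome. Each gene was taken by its name and not by a measured value, although the set was chosen with earlier results of these data known. It covers complex I with 39 nuclear and 7 mitochondrial genes, complex II with 4 nuclear genes, complex III with 8 and 1, complex IV with 21 and 3, and ATP synthase (complex V) with 17 and 2. A further 12 nuclear genes, *Ndufaf1* to *Ndufaf8* and *Sdhaf1* to *Sdhaf4*, carry such names but code for factors that assemble complexes I and II. *Ndufa4* and *Ndufa4l2* were counted with complex IV, where the NDUFA4 protein is now placed.

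Complexes I and II feed electrons from NADH and succinate into the inner mitochondrial membrane, complex III passes them to cytochrome c, and complex IV hands them to oxygen. Complexes I, III and IV pump protons, and ATP synthase makes ATP as the protons return. The mitochondrial genome codes for core membrane subunits alone, so that complexes I, III, IV and V are built from products of both genomes, whereas complex II is wholly nuclear. Retinal neurons, rods and retinal ganglion cells (RGCs) among them, are heavy users of this pathway.

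The cells came from the retinas of C57BL/6 mice aged 8 to 10 weeks that carried floxed *Arid1a* alleles (*Arid1a* fl/fl) in both groups. AAV2-GFP (WT) or AAV2-Cre (cKO, given in the labels as *Arid1a* del/del) was injected into the vitreous 2 weeks before optic nerve crush (ONC), and retinas were taken 3 days after ONC, 4 to 5 retinas for each sample. WT here therefore stands for uncut floxed alleles, and Cre reached whichever cells the virus entered. Cells positive for Thy1.2, a surface protein of RGCs that T cells carry too, were sorted and used for RNA-seq (3 WT and 3 cKO libraries) and for ATAC-seq, which measures open chromatin (2 WT and 2 cKO libraries).

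RNA levels are in TPM, a unit that divides by transcript length and scales each library to a fixed total, so that levels can be set side by side between genes; each library summed to between 995278 and 999315, and the depth behind a value is unknown. *Arid1a* was not lower in the cKO libraries (18.8, 27.9 and 25.0 TPM, against 18.8, 11.7 and 14.1 TPM in WT; log2 fold change 0.66, SE 0.28, adjusted p = 0.274 from limma), so each direction below is given by label. Markers of other cell types were present, and some of their sums separated the groups. The summed level of 12 rod markers was 14134 to 19510 TPM in WT and 29100 to 53387 TPM in cKO. That of 14 T cell markers was 1207 to 3574 TPM and 335 to 760 TPM, and that of 12 myeloid markers 2204 to 3592 TPM and 954 to 1275 TPM. Cone and amacrine sums were also higher in cKO without overlap, whereas bipolar, endothelial and pericyte, and erythrocyte sums overlapped. The sum of 10 Müller glia and astrocyte markers overlapped too, with 9464, 16810 and 18751 TPM in WT and 7708, 7940 and 17719 TPM in cKO. The summed level of 12 RGC markers was 144 to 205 TPM in WT and 227 to 253 TPM in cKO, although of the 9 that could be tested 6 were above 0 and 3 below, with a median log2 fold change of 0.11 against 0.16 for all genes. No marker of these lists was at 0 in all libraries. In sorted bulk samples, a change in the number of cells of a type and a change in the RNA of each cell cannot be told apart. The part of these shifts in the values below was not tested.

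The nuclear OXPHOS genes together made up 14733, 10171 and 10464 TPM in WT replicates 1, 2 and 3, and 18553, 25062 and 12787 TPM in cKO replicates 1, 2 and 3. The mean was 11789 ± 2554 TPM (SD, n = 3) in WT and 18801 ± 6141 TPM in cKO. The groups overlapped, since cKO replicate 3 lay below WT replicate 1. The 13 mitochondrial genes made up more RNA than all nuclear ones in each library, at 42472, 22985 and 30507 TPM in WT and 41498, 40940 and 24457 TPM in cKO. These groups overlapped widely, with WT replicate 2 and cKO replicate 3 lowest. All 114 genes together held between 3.32% and 6.63% of all TPM. Nuclear and mitochondrial sums moved in the same direction over the libraries (Pearson's r of their log2 values 0.76, n = 6, all sharing the fixed total of a TPM table).

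The ratio of mitochondrial to nuclear OXPHOS RNA was 2.88, 2.26 and 2.92 in WT and 2.24, 1.63 and 1.91 in cKO, so that each cKO library lay below each WT library, cKO replicate 1 by a small margin. Without the ATP synthase genes *Atp5b*, *Atp5e* and *Atp5mpl* the ratio was 3.75, 2.75 and 3.90 in WT and 3.04, 2.51 and 2.83 in cKO, and the groups overlapped.

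**Figure D1:**
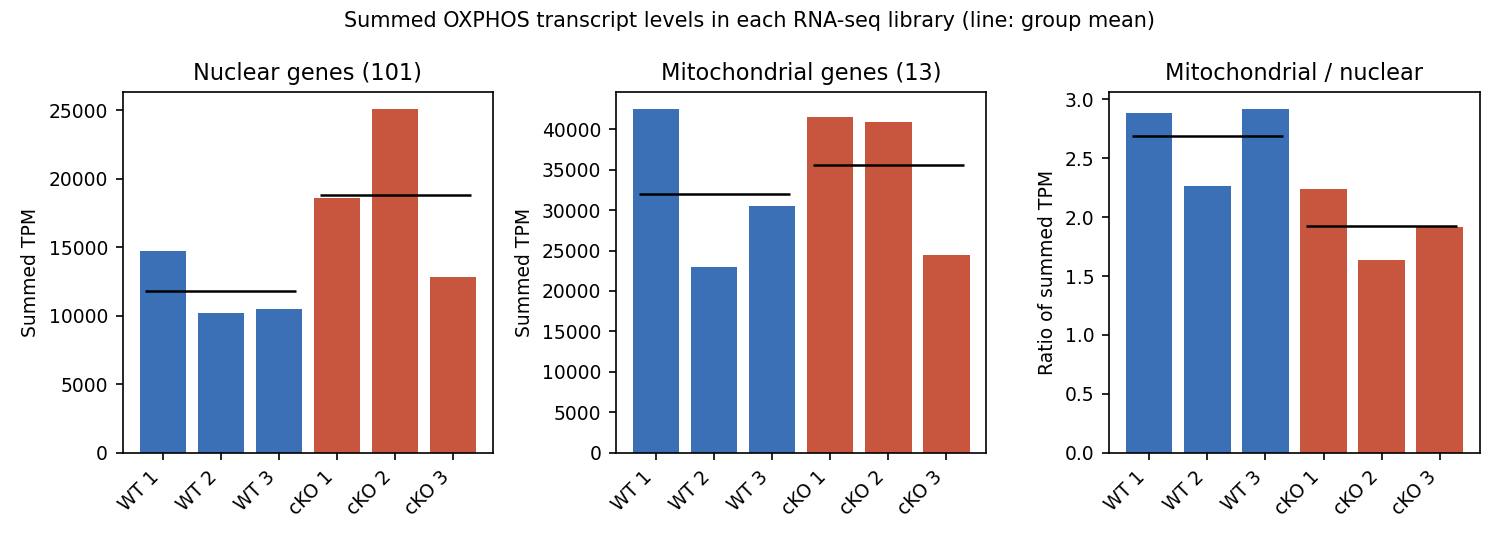
Summed TPM of the 101 nuclear and of the 13 mitochondrial OXPHOS genes in each of the 6 libraries, and the ratio of the sums; bars are libraries and lines are group means. The nuclear sum is highest in cKO replicate 2 (25062 TPM), the mitochondrial sums of the groups overlap, and the ratio is between 2.26 and 2.92 in WT and between 1.63 and 2.24 in cKO.

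Among the complexes, nuclear genes of ATP synthase differed most between the groups by sum, with 6356, 3454 and 4421 TPM in WT and 8583, 13272 and 6335 TPM in cKO. WT replicate 1 and cKO replicate 3 were nearly level, and the other libraries separated by label. Complex I stood at 3562, 3062 and 2659 TPM in WT and 4523, 5181 and 2905 TPM in cKO, with cKO replicate 3 inside the WT range. Complex III ranged from 925 to 1169 TPM in WT and from 985 to 1790 TPM in cKO, and complex IV from 1567 to 2759 TPM and from 1583 to 3611 TPM. Complex II, which is also an enzyme of the citric acid cycle, varied least, with 525, 664 and 574 TPM in WT and 676, 671 and 601 TPM in cKO. The 12 assembly factors had 361, 356 and 319 TPM in WT and 471, 537 and 378 TPM in cKO, and these groups did not overlap.

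Gene by gene, log2(TPM + 1) was compared with limma over the 17555 genes with at least 1 TPM in at least 3 libraries. This covers 107 of the OXPHOS genes, 94 nuclear and 13 mitochondrial. The other 7, *Cox6a2*, *Cox6c2*, *Cox8b*, *Cox8c*, *Ndufa11b*, *Ndufb4c* and *Ndufs6b*, were too low. No OXPHOS gene passed an adjusted p of 0.05 (lowest 0.180, *Ndufs7*). In the same fit 0.0057% of all genes passed as higher in cKO and 0.0% as lower. At an unadjusted p under 0.05, 11 of 94 nuclear genes (11.7%) were higher, against 11.9% of all genes tested, and 1 (*Cox4i2*) was lower, against 6.45%. Among the 7562 genes with a mean of at least 20 TPM the background was 13.4% higher and 7.06% lower. The share that was higher is thus at the background. It rested on single libraries: 38 nuclear genes (40.4%, against 13.5% of all genes) were higher without cKO replicate 3, 29 (30.9%, against 9.69%) without WT replicate 1, and 0 (against 5.89%) without cKO replicate 2. No mitochondrial gene passed at that level in this fit; with replicate numbers as a block 1 did, *mt-Nd2*, lower.

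Of the 94 nuclear genes, 77 (81.9%) had a log2 fold change above 0, against 61.1% of all genes, and the median was 0.49 against 0.16. Scaling by the median of ratios moved the median of all genes to 0.01 and that of the nuclear OXPHOS genes to 0.32. With it 73.4% of them lay above 0, against 50.8% of all genes, and the calls at an unadjusted p under 0.05 changed to 0 higher and 3 lower (*Cox4i2*, *Ndufa4l2* and *Sdhd*; 3.19%), where 7.57% of all genes were higher and 9.55% lower. The mitochondrial genes had a median of 0.31, which became 0.14 with that scaling and -0.11 without WT replicate 2. The nuclear median by complex was 0.47 for complex I, 0.15 for complex II, 0.49 for complex III, 0.50 for complex IV, 0.83 for complex V and 0.52 for the assembly factors. These medians moved with single libraries: leaving out each in turn gave 0.27 (without cKO replicate 2) to 0.77 (without cKO replicate 3) for complex I, -0.10 to 0.30 for complex II, 0.28 to 0.89 for complex III and 0.37 to 0.76 for complex IV, with the highest value of each without cKO replicate 3. Complex V ran from 0.54 without cKO replicate 2 to 1.27 without WT replicate 1, and all nuclear genes from 0.34 to 0.78, without cKO replicates 2 and 3.

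**Figure D2:**
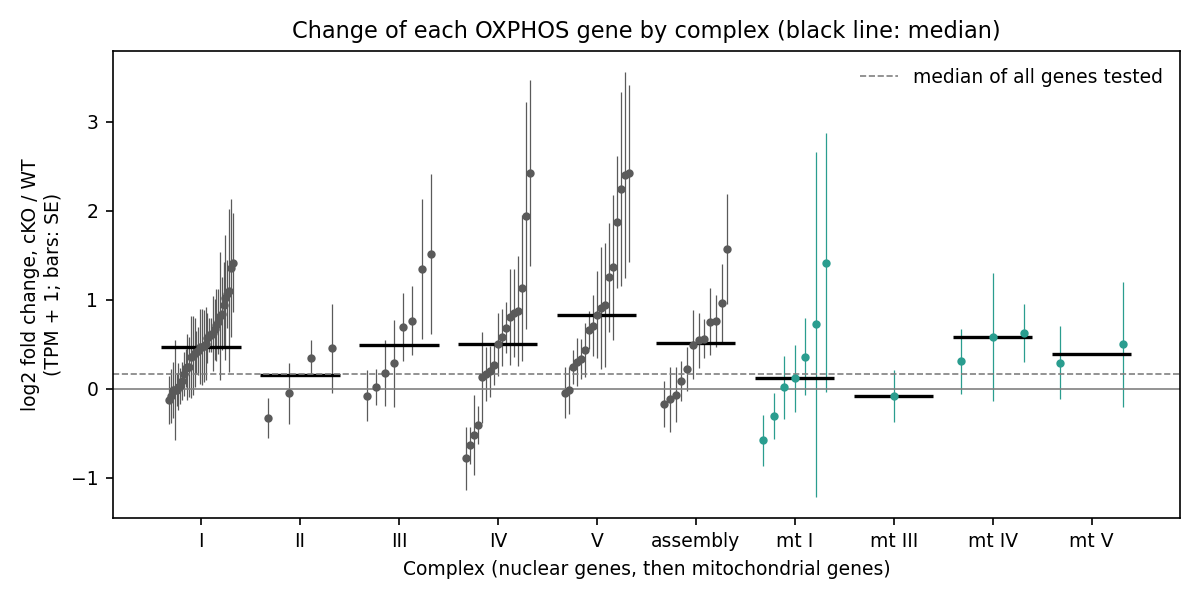
The log2 fold change of cKO over WT on the log2(TPM + 1) scale for each of the 107 OXPHOS genes tested, by complex; points are genes with standard errors, black lines are medians of the complexes, and the dashed line is the median of all genes tested (0.16). Nuclear medians run from 0.15 (complex II) to 0.83 (complex V), and the 3 genes with log2 fold changes of 2.40 to 2.42 have standard errors of 1.00 to 1.15.

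Libraries of the same group differed widely. cKO replicate 2 held the highest value of 64 of the 94 nuclear genes, whereas 21.6% of all genes had their highest value there. The lowest value fell in WT replicate 2 for 37 genes, in cKO replicate 3 for 25 and in WT replicate 3 for 22. Of all genes tested, 20.4%, 11.6% and 14.9% had their lowest value in these libraries. WT replicate 1 was lowest for 7 of the 94, against 32.7% of all genes. The highest library exceeded the lowest by a median of 2.69-fold over the 94 genes, against 2.205-fold over the 7562 genes with a mean of at least 20 TPM. It did so by over 5-fold for 21 of the 94, against 856 of the 7562. The summed level of 85 cytosolic ribosomal protein genes was also low in WT replicate 2 (4943 TPM) and cKO replicate 3 (4771 TPM), with 7324 to 14306 TPM in the other libraries.

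Several small subunits of ATP synthase and complex IV spread widely. *Atp5e*, the epsilon subunit of the F1 head, was at 811, 32.3 and 364 TPM in WT and at 891, 2616 and 625 TPM in cKO (log2 fold change 2.40, SE 1.15, adjusted p = 0.315 from limma). *Atp5mpl*, a small protein bound to the membrane part of ATP synthase, was at 623, 52.1 and 281 TPM in WT and at 758, 3258 and 577 TPM in cKO (log2 fold change 2.42, SE 1.00, adjusted p = 0.261 from limma). *Cox7c*, a small subunit of complex IV, was at 173, 4.09 and 45.3 TPM in WT and at 219, 236 and 43.6 TPM in cKO. These 3 genes were lowest in WT replicate 2 and highest in cKO replicate 2, and for each the groups overlapped. Other genes were steady over the libraries: *Ndufa9* of complex I stayed between 125 and 144 TPM, and *Uqcrc2*, a core protein of complex III, between 140 and 184 TPM.

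**Figure D3:**
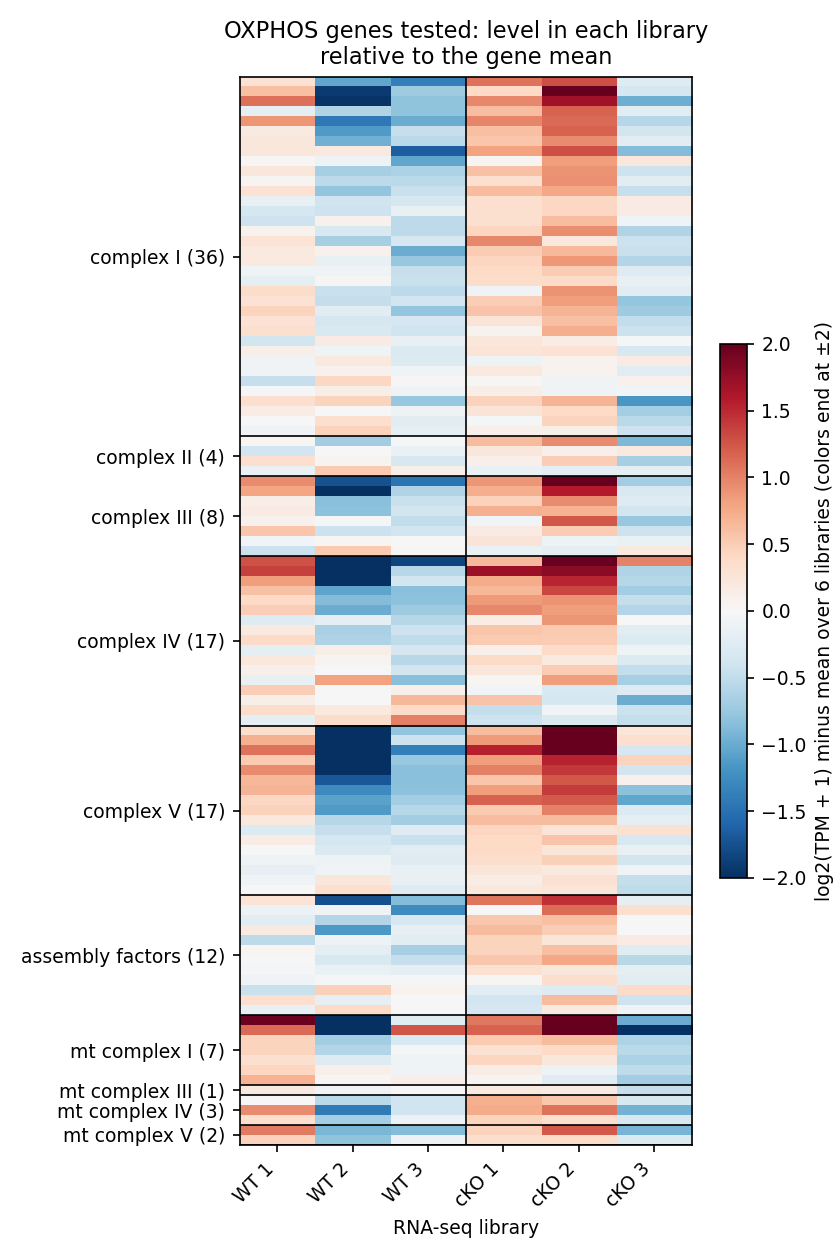
Level of each of the 107 OXPHOS genes tested in the 6 RNA-seq libraries, as log2(TPM + 1) minus the gene's mean, grouped by complex and, within a complex, sorted by fold change; red is above and blue below the mean. cKO replicate 2 is the reddest column (highest for 64 of 94 nuclear genes), and the genes of complexes III, IV and V with the largest changes are deep blue in WT replicate 2.

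In complex I, the core subunits of the arm that reaches into the matrix carry the iron-sulfur clusters. *Ndufs1* (GRCm38, chromosome 1, 63143592 to 63176822), the largest of them, was at 116, 111 and 134 TPM in WT and at 184, 198 and 166 TPM in cKO. Its log2 fold change was 0.60 (SE 0.19, adjusted p = 0.182 from limma). *Ndufs7* (chromosome 10, 80249105 to 80256794), which holds the last cluster before ubiquinone, was at 110, 92.7 and 95.4 TPM in WT and at 155, 163 and 137 TPM in cKO (log2 fold change 0.61, SE 0.19, adjusted p = 0.180). For both genes each cKO library lay above each WT library. Over the 7 nuclear core subunits, 6 were above 0 with a median of 0.23, and over the 29 accessory subunits tested, 25 were above 0 with a median of 0.47. Of all genes tested, 61.1% were above 0, with a median of 0.16.

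Among accessory subunits, *Ndufa5* had the largest log2 fold change of the nuclear genes of complex I, 1.41 (SE 0.55, adjusted p = 0.244 from limma), with 146, 58.0 and 46.0 TPM in WT and 258, 294 and 100 TPM in cKO. WT replicate 1 lay above cKO replicate 3. *Ndufs5* was at 49.2, 37.2 and 32.1 TPM in WT and at 87.7, 130 and 49.1 TPM in cKO (log2 fold change 1.07, SE 0.38, adjusted p = 0.209), and its groups met at WT replicate 1 and cKO replicate 3. *Ndufb5* was at the other end with -0.12 (SE 0.27, adjusted p = 0.835) and took the opposite sign without WT replicate 2.

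Of the 4 genes of complex II, *Sdha*, the flavoprotein that binds succinate, was at 271, 353 and 322 TPM in WT and 414, 382 and 406 TPM in cKO, and *Sdhd*, a membrane anchor, at 147, 231 and 173 TPM in WT and 147, 143 and 142 TPM in cKO. The groups did not overlap for either gene, *Sdha* being higher in cKO and *Sdhd* lower, the latter by under 1 TPM at WT replicate 1. The log2 fold changes were 0.35 (SE 0.20, adjusted p = 0.384 from limma) and -0.33 (SE 0.23, adjusted p = 0.479 from limma). *Sdhb*, the iron-sulfur subunit, and *Sdhc*, the other anchor, overlapped.

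In complex III, the core protein *Uqcrc1* had the highest nuclear level, 285, 550 and 389 TPM in WT and 349, 340 and 440 TPM in cKO, with a log2 fold change of -0.07 (SE 0.29, adjusted p = 0.912 from limma) that turned positive without WT replicate 2. *Uqcr10*, a small subunit, had the largest change, 1.51 (SE 0.90, adjusted p = 0.408 from limma), with 128, 19.0 and 23.4 TPM in WT and 123, 282 and 40.5 TPM in cKO. The groups overlapped for each of the 8 nuclear genes of this complex.

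Complex IV held the only nuclear OXPHOS gene lower at an unadjusted p under 0.05. *Cox4i2* (chromosome 2, 152753916 to 152765039), the isoform of subunit 4 linked to low oxygen, was at 157, 139 and 158 TPM in WT and at 87.1, 117 and 89.8 TPM in cKO (log2 fold change -0.63, SE 0.21, adjusted p = 0.187 from limma). *Cox4i1*, the common isoform, overlapped, with 252, 237 and 183 TPM in WT and 274, 335 and 167 TPM in cKO. The *Cox4i2* share of the pair was 38.4%, 37.0% and 46.4% in WT and 24.1%, 25.9% and 34.9% in cKO, with no overlap. Summed pericyte and endothelial markers, cells in which *Cox4i2* is known to be expressed, were at 478 to 1116 TPM in WT and 353 to 852 TPM in cKO; their part in the difference was not tested.

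*Ndufa4l2*, the other low-oxygen isoform of this complex, was low in all libraries, at 6.75, 10.4 and 16.8 TPM in WT and 5.66, 6.30 and 5.42 TPM in cKO (log2 fold change -0.78, SE 0.35, adjusted p = 0.296 from limma). *Cox7a2l* was at 273, 197 and 209 TPM in WT and 188, 158 and 163 TPM in cKO (log2 fold change -0.40, SE 0.21, adjusted p = 0.358 from limma). Each cKO library lay below each WT library for both genes. *Cox6b2*, the isoform known best from testis, went the other way, with 40.9, 42.7 and 32.7 TPM in WT and 54.7, 91.6 and 49.0 TPM in cKO (log2 fold change 0.69, SE 0.29, adjusted p = 0.270).

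Other isoform pairs of complex IV did not separate the groups. *Cox6b2* made up 18.8% to 67.2% of the pair with *Cox6b1* in WT and 24.5% to 42.6% in cKO. *Cox7a1*, the isoform of heart and muscle, made up 0 to 8.58% of the pair with *Cox7a2* in WT and 4.19% to 12.4% in cKO, and its own level ran from 0 (listed for WT replicate 2) to 32.1 TPM. *Cox6a2*, also of heart and muscle, stayed at or under 0.647% of the pair with *Cox6a1*.

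In ATP synthase, *Atp5b* (chromosome 10, 128083307 to 128090388), the catalytic beta subunit, had the highest mean level of all nuclear OXPHOS genes per length, although *Atp5mpl* was above it in cKO replicate 2. It was at 1987, 1735 and 2002 TPM in WT and at 3240, 2866 and 2946 TPM in cKO, each cKO library above each WT library. The log2 fold change was 0.66 (SE 0.22, adjusted p = 0.187 from limma), and 0.49 when libraries were scaled by the median of ratios. The exact two-sided permutation test gave p = 0.1, the smallest that 3 libraries against 3 allow, here and for each gene whose groups did not overlap. *Atp5md*, a small membrane subunit, was at 535, 61.5 and 220 TPM in WT and at 663, 1077 and 506 TPM in cKO (log2 fold change 1.87, SE 0.74, adjusted p = 0.246). WT replicate 1 lay within the cKO range.

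The c subunit of the rotor is made from 3 genes that code for the same mature protein. *Atp5g3* gave between 42.8% and 60.2% of their RNA over the 6 libraries, and the groups overlapped. *Atp5g1* gave 25.8%, 46.4% and 36.7% in WT and 22.0%, 22.0% and 27.7% in cKO, with WT replicate 1 inside the cKO range. Its own log2 fold change was the lowest of the complex, -0.04 (SE 0.29, adjusted p = 0.953 from limma), and changed sign without WT replicate 2 or cKO replicate 3.

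Of the 12 assembly factors, 9 had a log2 fold change above 0 (61.1% of all genes tested did) and 3 did not overlap. *Ndufaf4*, a factor of early complex I assembly, was at 30.6, 41.5 and 38.2 TPM in WT and 60.9, 52.9 and 50.1 TPM in cKO (log2 fold change 0.56, SE 0.22, adjusted p = 0.237 from limma). *Sdhaf3*, needed to mature the iron-sulfur subunit of complex II, was at 5.52, 4.09 and 5.11 TPM in WT and 10.2, 10.7 and 6.65 TPM in cKO (log2 fold change 0.77, SE 0.29, adjusted p = 0.232). *Ndufaf6* was the other, at 7.23 to 17.7 TPM in WT and 18.6 to 41.8 TPM in cKO. Over all nuclear OXPHOS genes tested, 9 did not overlap and were higher (18.7% of all genes tested were) and 4 were lower (7.18% of all genes tested were). No mitochondrial gene separated the groups.

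**Figure D4:**
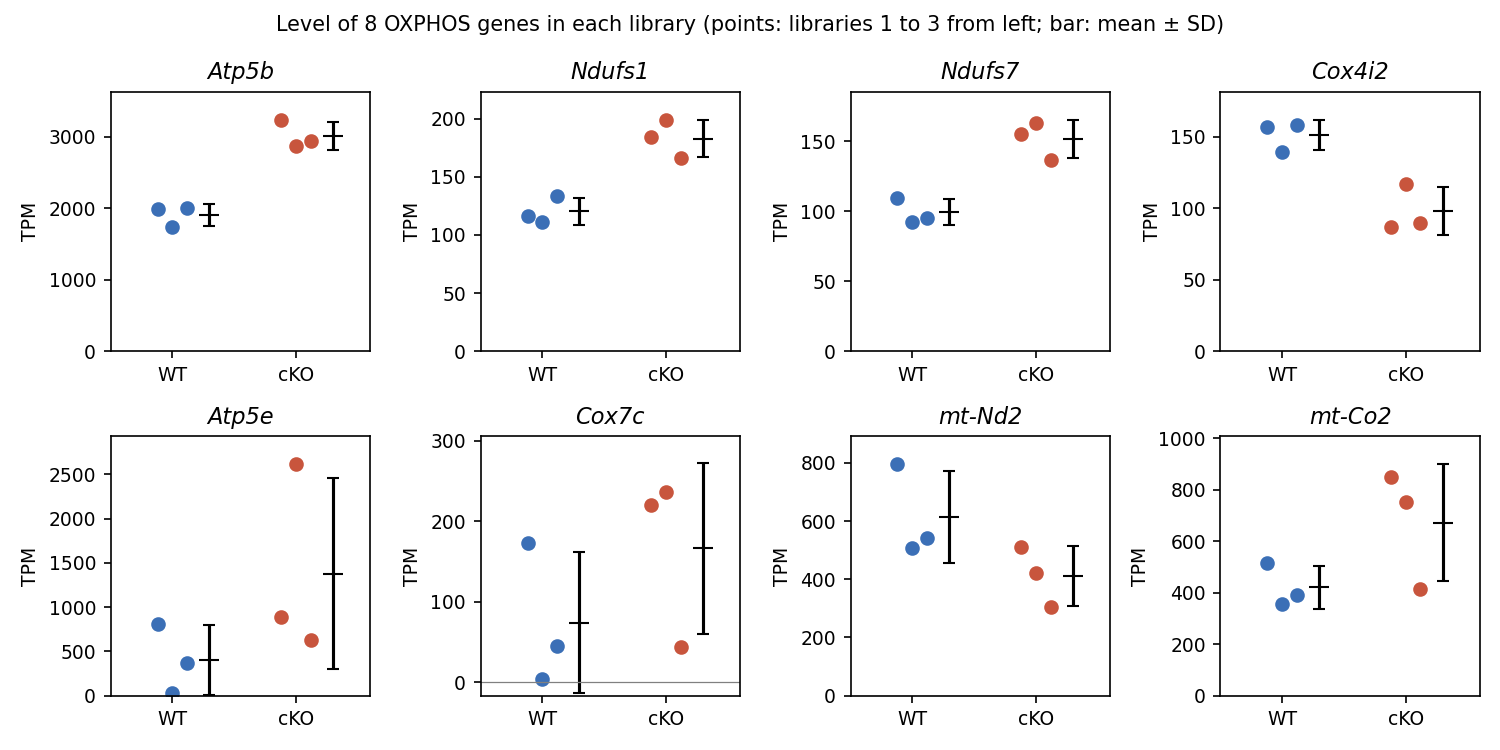
TPM of 8 OXPHOS genes in each library; points are libraries 1 to 3 of each group from left to right, and bars are the mean ± SD (n = 3). *Atp5b*, *Ndufs1*, *Ndufs7* and *Cox4i2* do not overlap between the groups, whereas *Atp5e* and *Cox7c* range from 32.3 to 2616 TPM and from 4.09 to 236 TPM over the 6 libraries.

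The 13 mitochondrial genes are cut from long transcripts of both strands, and their levels spanned a wide range. *mt-Atp6*, the channel subunit of ATP synthase, was highest, at 17162, 7153 and 11555 TPM in WT and 15911, 16107 and 10219 TPM in cKO. It was followed by *mt-Cytb* of complex III (4679 to 7284 TPM), *mt-Co1* of complex IV (2984 to 6545 TPM) and *mt-Nd1* of complex I (2706 to 5632 TPM), whose ranges overlap. *mt-Nd4* ranged from 1146 to 2333 TPM and *mt-Co3* from 276 to 1560 TPM. *mt-Nd2*, *mt-Nd5*, *mt-Nd6* and *mt-Co2* lay between 211 and 849 TPM, and *mt-Atp8* between 105 and 472 TPM.

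Of the short genes, *mt-Nd3* (348 bp) was listed at 0 in WT replicate 2 and reached 58.9 TPM in cKO replicate 2, and *mt-Nd4l* (297 bp) was listed at 0 in WT replicate 2 and cKO replicate 3 and reached 116 TPM in cKO replicate 2. *mt-Nd4l* overlaps *mt-Nd4*, and *mt-Atp8* (204 bp) overlaps *mt-Atp6*, so that reads of these pairs may be split between them. *mt-Cytb* (1144 bp) in contrast varied 1.56-fold over the 6 libraries.

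*mt-Nd2*, a membrane subunit of complex I, had the lowest log2 fold change of the mitochondrial genes, -0.58 (SE 0.29, adjusted p = 0.327 from limma, and 0.213 with the replicate block). It was at 796, 508 and 540 TPM in WT and at 510, 421 and 304 TPM in cKO, and cKO replicate 1 lay just above WT replicate 2. *mt-Co2*, which takes electrons from cytochrome c, was at 515, 355 and 391 TPM in WT and 849, 752 and 414 TPM in cKO (log2 fold change 0.63, SE 0.32, adjusted p = 0.343 from limma). As shares of the 13 genes, which sum to a fixed total and so cannot move freely, *mt-Nd2* made up 1.87%, 2.21% and 1.77% in WT and 1.23%, 1.03% and 1.24% in cKO, and *mt-Co2* made up 1.21%, 1.54% and 1.28% in WT and 2.05%, 1.84% and 1.69% in cKO. *mt-Nd6*, the subunit coded on the other strand, fell between 1.66% and 2.51% in WT and between 1.22% and 1.54% in cKO, and *mt-Co1* between 13.0% and 14.4% and between 14.7% and 15.8%. None of these shares overlapped between the groups. The pseudogene *Gm10925*, described below, is not in this total. The shares depend on whether *Gm10925* is counted. With it in the total, those of *mt-Nd6* overlap between the groups.

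The level of *mt-Atp6* is uncertain, because the table also lists *Gm10925*, a pseudogene of the same 681 bp on chromosome 1 (24613971 to 24614651) to which RefSeq gives *mt-Atp6* as a synonym. *Gm10925* was at 8326, 10785 and 9607 TPM in WT and 7118, 3801 and 3698 TPM in cKO. It made up 32.7%, 60.1% and 45.4% of the sum of both genes in WT and 30.9%, 19.1% and 26.6% in cKO. The sum was 25488, 17938 and 21162 TPM in WT and 23029, 19908 and 13917 TPM in cKO, with groups that overlapped. With *Gm10925* counted as mitochondrial, the ratio of mitochondrial to nuclear OXPHOS RNA was 3.45, 3.32 and 3.83 in WT and between 1.79 and 2.62 in cKO, with no overlap. How the reads were shared between both genes cannot be read from TPM.

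Genes around OXPHOS, taken from lists that were chosen with results of these data known, are given for comparison. Of 17 glycolysis genes, 17 lay above 0 and 10 were higher at an unadjusted p under 0.05 (against 61.1% above 0 and 11.9% higher among all genes, the background for each list here), with a median log2 fold change of 0.68, above that of the nuclear OXPHOS genes. The neuronal enolase *Eno2* was at 203, 172 and 194 TPM in WT and 577, 435 and 367 TPM in cKO (log2 fold change 1.25, SE 0.23, adjusted p = 0.124 from limma), and *Gapdh* at 5240, 4696 and 5000 TPM in WT and 9372, 7640 and 7080 TPM in cKO (log2 fold change 0.68, SE 0.25, adjusted p = 0.225). Neither overlapped. Of 14 genes of the citric acid cycle, 13 lay above 0 and 3 were higher and 1 lower at that level, with a median of 0.39; *Idh3a* was at 62.3, 60.6 and 51.1 TPM in WT and 105, 123 and 72.7 TPM in cKO. The median was 0.38 for 10 genes of pyruvate entry (0 passing at an unadjusted p under 0.05 in limma), 0.19 for 24 assembly genes of complexes III and IV (1 higher) and 0.30 for 11 further assembly genes of complexes I and V (1 higher and 1 lower).

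The same background, 61.1% above 0 and 11.9% higher, applies to the lists that follow. Among 14 electron carriers and exchangers, 13 lay above 0 and 3 were higher, with a median of 0.44. The mitochondrial creatine kinase *Ckmt1* was at 31.6, 26.7 and 37.5 TPM in WT and 67.9, 80.4 and 76.2 TPM in cKO (log2 fold change 1.21, SE 0.22, adjusted p = 0.124 from limma). *Cycs*, which codes for cytochrome c, was at 27.7, 16.2 and 19.1 TPM in WT and 38.8, 44.4 and 20.5 TPM in cKO, and overlapped. Of 29 genes that copy, transcribe or translate the mitochondrial genome, 22 lay above 0 and 3 were higher; *Fastkd2*, an RNA-binding protein of the organelle, did not overlap (log2 fold change 0.93, SE 0.27, adjusted p = 0.156), and *Tfam*, which packs the mitochondrial DNA, was at 79.8, 101 and 99.2 TPM in WT and 78.9, 81.5 and 71.5 TPM in cKO. Of 14 regulators of OXPHOS transcription, 13 lay above 0 and 3 were higher. The receptor *Esrrg*, which acts on energy genes of neurons and muscle, was at 32.5, 21.8 and 23.6 TPM in WT and 73.2, 100 and 52.6 TPM in cKO (log2 fold change 1.47, SE 0.30, adjusted p = 0.124), while the coactivator *Ppargc1a* (7.99 to 15.7 TPM and 13.2 to 28.2 TPM) and *Nrf1* (25.3 to 35.9 TPM and 25.2 to 36.5 TPM) overlapped.

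Chromatin at the nuclear OXPHOS genes was compared next. For each of 16600 ATAC-seq regions the table gives 1 value a group, the normalized reads averaged over its 2 libraries and put on a log2 scale, and no error, so no test was run. A region was counted for a gene when it lay within 1000 bp of either end. Of the 101 nuclear genes, 65 had such a region, 67 regions in all, and 36 had none, among them *Cox4i2*, *Cox6b2*, *Ndufs5* and *Atp5mpl*. Of the 94 genes tested by RNA-seq, 69.1% had a region (Wilson 95% interval 59.2% to 77.6%), against 51.5% of all genes tested. Intervals of this kind cover counting error only.

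All 67 regions were lower in cKO, as were 6814 of the 6965 regions at ends of genes tested. Of the 6621 of these with a peak in both WT libraries, 6617 were lower. The median value was 34.8 normalized reads in WT and 5.28 in cKO, and the median difference was -2.79 on the log2 scale. A difference of -1 or lower was found in 66 of the 67 (98.5%, Wilson 95% interval 92.0% to 99.7%), against 59.8% of all regions and 93.1% of regions at ends of genes tested. Among regions at gene ends with a peak in both WT libraries the share was 97.0%, which is close to the share at OXPHOS genes. By complex the median difference was -2.78 for complex I (26 regions), -1.43 for complex II (4), -2.63 for complex III (6), -2.78 for complex IV (8), -3.05 for complex V (12) and -2.80 for the assembly factors (11).

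The promoters of the genes at both ends of this range, and that of *Atp5b*, are shown for the sequence that lies in or beside the region that lost reads. They run from 250 bases before to 50 bases after the start, 5′ to 3′, from RefSeq on GRCm38.p6. Capitals mark matches on either strand to 4 motifs that were searched: GCATGCG (the core of the NRF1 site), CCGGAAG (ETS factors), GGGCGG (SP and KLF factors) and AAGATGG (YY1).
Ndufb11, chrX:20617570-20617869, minus strand: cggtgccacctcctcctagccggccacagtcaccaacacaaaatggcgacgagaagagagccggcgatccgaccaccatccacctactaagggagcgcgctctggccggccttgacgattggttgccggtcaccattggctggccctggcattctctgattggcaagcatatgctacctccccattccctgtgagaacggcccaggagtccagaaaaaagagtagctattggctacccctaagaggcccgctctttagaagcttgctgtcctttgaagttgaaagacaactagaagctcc
Cox7c, chr13:86046746-86047045, minus strand: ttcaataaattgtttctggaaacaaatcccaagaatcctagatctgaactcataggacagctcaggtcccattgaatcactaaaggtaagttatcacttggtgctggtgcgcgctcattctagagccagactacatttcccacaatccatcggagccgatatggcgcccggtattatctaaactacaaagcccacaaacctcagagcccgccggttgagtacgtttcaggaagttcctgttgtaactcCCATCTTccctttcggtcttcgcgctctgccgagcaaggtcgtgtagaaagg
Ndufs4, chr13:114388045-114388344, minus strand: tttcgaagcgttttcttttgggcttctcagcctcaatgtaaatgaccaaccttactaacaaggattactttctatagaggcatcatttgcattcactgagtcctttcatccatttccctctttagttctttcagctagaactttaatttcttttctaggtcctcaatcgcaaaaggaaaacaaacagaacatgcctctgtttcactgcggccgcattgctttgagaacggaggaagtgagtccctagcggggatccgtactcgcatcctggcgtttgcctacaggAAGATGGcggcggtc
Atp5b, chr10:128083057-128083356, plus strand: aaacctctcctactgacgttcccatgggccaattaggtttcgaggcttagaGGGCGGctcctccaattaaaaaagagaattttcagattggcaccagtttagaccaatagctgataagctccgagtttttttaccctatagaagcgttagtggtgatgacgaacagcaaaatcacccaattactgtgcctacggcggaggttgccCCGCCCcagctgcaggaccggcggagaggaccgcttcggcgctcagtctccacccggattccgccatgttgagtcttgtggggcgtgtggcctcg

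*Ndufb11*, an accessory subunit of complex I, fell from 30.5 to 1.21 normalized reads (difference -4.66, the largest), in a region at chrX:20617219-20617901 that covers its start; none of the 4 motifs matched its promoter. *Cox7c* fell from 22.5 to 1.16 (-4.27, chr13:86046350-86046940), and its promoter holds the YY1 motif on the other strand. *Cox4i1* fell from 41.1 to 1.74 (-4.56). *Ndufs4*, an accessory subunit of complex I, changed least, from 9.06 to 6.45 (-0.49, chr13:114387444-114388093), and its promoter holds the YY1 motif near the 3′ end of the stretch. Its WT value was low among the 67, which ran from 6.68 to 115 normalized reads. *Uqcrc2* went from 22.6 to 10.7 (-1.08) and *Sdha* from 23.6 to 11.1 (-1.09). *Atp5b* went from 38.3 to 4.50 (-3.09, chr10:128082715-128083564), and its promoter holds the SP and KLF motif once on each strand.

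**Figure D5:**
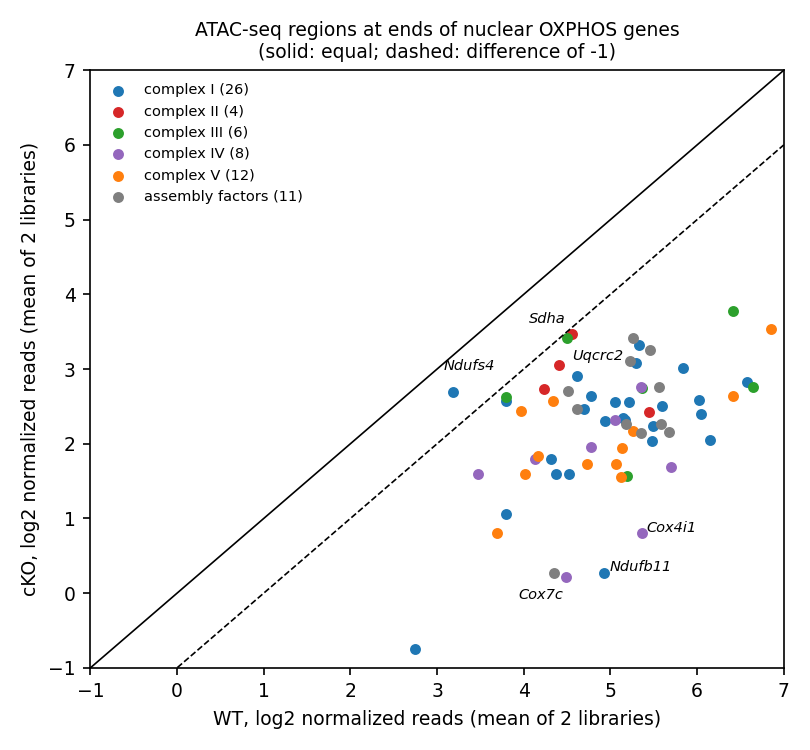
ATAC-seq values of the 67 regions at ends of nuclear OXPHOS genes, as log2 of mean normalized reads in WT (horizontal) and cKO (vertical); points are regions, colored by complex, the solid line marks equal values and the dashed line a difference of -1. All 67 lie below the solid line and 66 on or below the dashed line; *Ndufs4* is the exception.

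The RNA of the same genes is set beside these values. *Ndufb11* was at 116, 74.7 and 74.9 TPM in WT and 113, 144 and 67.2 TPM in cKO, and *Ndufs4* at 86.4, 77.2 and 72.5 TPM in WT and 93.9, 103 and 48.3 TPM in cKO, with overlap in both. *Atp5b*, *Ndufs1* and *Ndufs7*, with differences of -3.09, -3.65 and -3.45 at an end of the gene, had higher RNA in each cKO library than in each WT library. *Cox7a2l* and *Sdhd*, with differences of -2.73 and -1.50, had lower RNA in each cKO library than in each WT library. *Cox4i2* and *Ndufa4l2*, whose RNA was also lower without overlap, had no region. Regions were thus lower in cKO at genes of either RNA direction, as at nearly all gene ends. The RNA and ATAC-seq libraries are listed as separate samples, and whether any of them shared a pool of sorted cells is not stated.

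Peaks were called in each library by the authors. A peak lay within 1000 bp of an end of 80.2% of the 101 nuclear genes in WT replicate 1 (Wilson 95% interval 71.4% to 86.8%), of 67.3% in WT replicate 2 (57.7% to 75.7%), and of 16.8% and 15.8% in cKO replicates 1 and 2 (10.8% to 25.3% and 9.99% to 24.2%). For the 94 genes tested by RNA-seq the shares were 86.2% and 72.3% in WT, against 65.1% and 58.2% of all genes tested, and 17.0% and 16.0% in cKO, against 13.6% and 13.9%. The lists held 55902 and 68317 peaks in cKO and 76522 and 42265 in WT. A total of peaks does not measure library quality, and the part of library quality in the cKO shares was not tested. Both WT libraries had a peak at 64 genes, and at 48 of them neither cKO library did. Both cKO libraries had a peak at 2 genes, *Sdha* and *Uqcrc1*, and 12 genes had none in any library. Such counts over several libraries were not made for all genes, so the 48 of 64 has no background beside it. The share of all genes with a peak was also lower in each cKO library than in each WT library.

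The 4 motifs were counted in the promoters of all nuclear OXPHOS genes that RefSeq's table holds, 85 promoters of 80 genes. The NRF1 core stood in 15.3% of them, against 3.58% of 32851 promoters of all genes, the ETS motif in 25.9% against 8.86%, the YY1 motif in 14.1% against 6.34%, and the SP and KLF motif in 47.1% against 35.7%. Among promoters that overlap an ATAC-seq region the shares were 16.1% against 8.18%, 25.8% against 20.0%, 16.1% against 7.67% and 51.6% against 71.9%, so that the order of the last reversed. The median GC content was 58.7% for OXPHOS promoters and 52.7% for all, but 59.8% and 63.3% among those that overlap a region. The median ATAC-seq difference was -2.69 with the NRF1 core (10 genes with a region) and -2.81 without it (46), -2.61 and -2.90 for the ETS motif, -3.10 and -2.79 for YY1, and -2.83 and -2.81 for SP and KLF.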

How the data were processed

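RNA-seq (3 WT and 3 cKO libraries) and ATAC-seq (2 and 2) were analysed from the processed files. Per the labels and the study's methods, the authors made TPM values with Salmon 1.0.0 and tximport on GENCODE vM23 after trimming, with no depth kept. The deposited ATAC-seq values are log2 mean normalized reads per group from DiffBind, after Bowtie 2 version 2.3.5.1; the processing notes also name MACS2 2.2.5. The authors' own fold changes, p-values and FDR (DESeq2 1.26.0 for RNA, DiffBind for ATAC-seq) were not used. Groups came from the labels. Starts were written counted from 1.

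The OXPHOS genes, the gene lists and the tests were chosen with earlier results of these data known. Genes with at least 1 TPM in at least 3 of 6 libraries were compared on log2(TPM + 1), which understates changes of low genes, with limma 3.58.1 (linear fit, empirical Bayes with a trend) in R 4.3.3, with Benjamini-Hochberg adjustment over all 17555 genes and a threshold of 0.05. Single genes were also compared by exact permutation. The script was tested on simulated data. Same-numbered WT and cKO libraries, numbered so in the labels, deviated together (correlations 0.334, 0.101 and 0.425 over genes), so a replicate block was run as an alternative. P-values measure the spread between these libraries, each of pooled retinas. Alternatives were a pseudocount of 0.1, no filter, a filter at a mean of 5 TPM, median-of-ratios scaling, nuclear TPM alone, no trend, each library left out, windows of 3000 bp, a difference of -2, only those regions that both WT libraries called as peaks, 1 region for each gene, and peaks lying by most of their length in the window.

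Named genes are all mitochondrial genes, the highest in level and the most changed of each complex, those with non-overlapping groups and an unadjusted p under 0.05, isoform pairs, the extremes of the ATAC-seq difference, and the leading genes of the other lists. Not every gene that the rule reaches is reported here. *Ndufs5*, *Atp5md*, *Atp5e*, *Cox7c*, *Ndufa9*, *Ndufaf6*, *Sdhb* and *Cox7a2l* were named after their values were seen where that rule does not reach them. Positions, promoters and strands are from RefSeq on GRCm38.p6, where all 101 nuclear genes matched. Other computations used Python 3.11.15, numpy 2.4.6, pandas 2.3.3 and scipy 1.17.1, with figures by matplotlib 3.10.9.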

Additional observations from a re-analysis of the deposited data

How the results depend on the processing

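No OXPHOS gene passed an adjusted p of 0.05 in limma under any alternative run. The number of nuclear genes higher at an unadjusted p under 0.05 was 11 as reported and 0 with median-of-ratios scaling; leaving out a library gave 0 (without cKO replicate 2) to 38 (without cKO replicate 3), with 29 without WT replicate 1, 4 without WT replicate 2, and 1 without WT replicate 3 or cKO replicate 1. Of all genes, 7.57% were higher with that scaling, and 9.69%, 11.7% and 9.18% without WT replicates 1, 2 and 3 and 6.97%, 5.89% and 13.5% without cKO replicates 1, 2 and 3. The number lower was 1, became 3 with that scaling, and ran from 0 to 2 without a library. For mitochondrial genes the number was 0, became 1 (*mt-Nd2*) with the replicate block, and ran from 0 to 1 (*mt-Co2*, without cKO replicate 3). The block gave 15 nuclear genes higher (16.0%, against 13.4% of all genes) and 1 lower, and moved no other count by over 1.5 times. The median log2 fold change of complex II ran from -0.10 (without cKO replicate 2) to 0.30 (without cKO replicate 3), and that of the complex III and IV assembly genes fell from 0.19 to 0.028 with median-of-ratios scaling. A threshold of -2 kept 80.6% of the ATAC-seq regions (71.8% of those at ends of genes tested). Windows of 3000 bp gave shares with a peak of 84.2% and 71.3% in WT and raised those in cKO to 35.6% and 34.7%. The share of all genes was not computed at that window. With it, 77 of 78 regions were lower in cKO, 94.9% had a difference of -1 or lower, and the highest difference was 2.77.

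Of 516 alternative values of 40 named genes, 6 reversed, in 4 genes. Without a library the log2 fold change ran from -0.18 to 0.20 for *Atp5g1*, from -0.25 to 0.076 for *Ndufb5*, from -0.31 to 0.17 for *Uqcrc1* and from -0.031 to 0.60 for *mt-Atp6*, with reversals without WT replicate 2 for all 4 and also without cKO replicate 3 for *Atp5g1* and *Ndufb5*. Counting *Gm10925* with *mt-Atp6* was chosen after seeing the data. The cause was not tested in any of these cases. Depth is unknown, and 3 libraries a group limit the precision.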
